A study of Mus musculus with 6 samples.

Results

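The collagens, laminins and fibrous matrix proteins build the extracellular scaffold of tissues. In the array data they were taken as the genes whose symbol names a collagen chain or a laminin chain, together with Sparc, the fibrillins, elastin, fibronectin, fibromodulin, lumican, decorin, Abi3bp and the nidogens. The rule found 64 genes of the 19938 tested: 44 collagen genes, 10 laminin genes and 10 others. Fbn1 was not analysed here. For the 62 members with a single probe set that probe set was used, and for Col6a5 and Col6a6 the one with the highest mean.

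The samples were adult forebrain cortex of C57BL/6 mice. The 3 animals labelled Dicer KO carried 1 copy of a CamKII-Cre transgene and were homozygous for a floxed Dicer allele. The 3 littermate controls either carried CamKII-Cre with 1 floxed allele or lacked the transgene and had both alleles floxed; which genotype each control had is not labelled. All 6 animals therefore carried at least 1 floxed allele. The CamKII promoter is active in excitatory forebrain neurons, so other cell types of the cortex keep Dicer, the enzyme that cuts microRNA precursors to their mature form. RNA of each animal was hybridised to 1 Affymetrix whole-transcript array, and all values are on the log2 scale of the deposited table.

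Fibrillar collagens form cable-like fibres in the meninges and around larger vessels. Type IV collagen, laminins and nidogens form the basement membranes that lie between brain capillaries, their pericytes and the endfeet of astrocytes, and under the pial surface. Most of these proteins are made in the brain by meningeal and perivascular fibroblasts, vascular cells and astrocytes, and a few collagens with a membrane anchor are made by neurons. In bulk cortex fewer cells of a type and less RNA per cell cannot be told apart.

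Several collagen genes are reported targets of the miR-29 family of microRNAs, which Dicer matures. The mature members below are shown because 13 of the 64 genes are reported targets of this family. All share the seed, bases 2 to 8 counted from the 5′ end, which is in capitals (RefSeq, GRCm38.p6).
mmu-miR-29a-3p: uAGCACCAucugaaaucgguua
mmu-miR-29b-3p: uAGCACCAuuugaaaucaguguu
mmu-miR-29c-3p: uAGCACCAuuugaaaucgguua

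The 6 arrays had median log2 values of 7.13 to 7.22. Dicer1 read 9.58, 9.68 and 9.46 in the arrays labelled Dicer KO, against 9.17, 9.21 and 9.18 in control arrays, so its value does not check the labels, and directions below are those of the labelled arrays. The excitatory neuron marker Slc17a7 was between 12.06 and 12.27 in the arrays labelled Dicer KO and between 12.12 and 12.37 in control arrays. Control array 1 stood apart for 11 olfactory bulb genes, whose mean lay 0.93 above the control mean there, against -0.55 to -0.38 in the other 5 arrays. Eif2s3y, a Y-linked gene, was high in labelled KO arrays 1 and 3 and control array 2 and low in the other 3 arrays, so both groups held animals of both sexes. No detection call was used here. The mean of 33 of the 64 genes lay within 0.5 of the arrays' median signal, and 5 more, Lum, Col10a1, Col4a6, Col28a1 and Fbn2, lay further below it. Whether the transcripts of these genes were present is unknown, and a small difference there does not show a steady level.

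For 55 of the 64 collagen, laminin and fibrous matrix genes the arrays labelled Dicer KO and the control arrays differed by less than 0.25 in either direction (85.9%), as did 85.01% of all genes. Abi3bp was the 1 gene of the 64 past an adjusted p of 0.05 and was lower in the arrays labelled Dicer KO. At this threshold 0.281% of all genes were called, 0.0903% higher and 0.191% lower. Of the 64 genes 33 had positive and 31 negative log2 differences, with a median of 0.0073 (-0.020 with the array medians set equal) beside -0.0092 over all genes tested. Differences smaller than 0.1 in either direction were found for 39 of the 64 genes (60.9%), and for 49.0% of all genes. At an unadjusted p under 0.05 there were 10 members, 7 higher and 3 lower (15.6% in all), where 14.4% of all genes passed, 7.01% higher and 7.39% lower.

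The groups did not overlap for 16 of the 64 genes (25%), against 20.3% of all genes. Every labelled KO array was above every control array for 10 members (15.6%, with 9.3% of all genes), which were Sparc, Fmod, Col8a1, Lamb2, Col6a1, Dcn, Col4a2, Lamb1, Lamc1 and Lama1. Every labelled KO array was below every control array for 6 members (9.38%, with 11% of all genes), which were Abi3bp, Lama3, Fbn2, Col4a4, Col22a1 and Col24a1. With the medians of the arrays set equal, 13 members did not overlap. The share of all genes was not counted in that setting, so these 13 cannot be set against it.

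**Figure D1:**
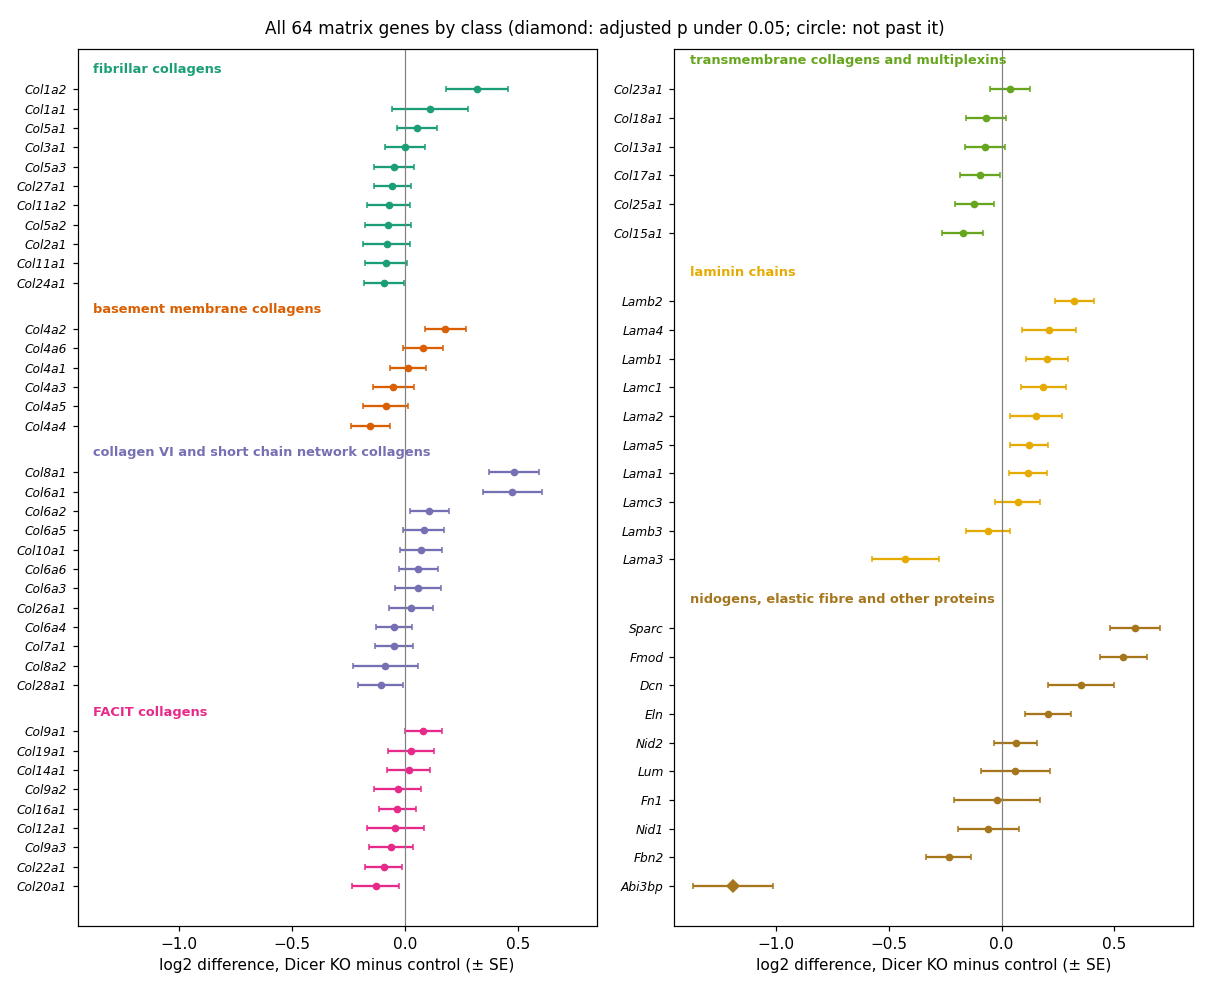
The log2 difference, Dicer KO minus control (horizontal axis, with its standard error), is plotted for each of the 64 genes, grouped by class. Abi3bp, the 1 diamond, lies at -1.19, and the other genes lie between -0.43 and 0.59.

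Abi3bp encodes a secreted matrix protein with fibronectin-like domains. It read 6.38, 6.31 and 6.88 in the arrays labelled Dicer KO, against 7.89, 7.40 and 7.84 in control arrays. All 3 labelled KO arrays lay below all 3 control arrays, and labelled KO array 3 was the highest of its group. The means were 6.52 ± 0.31 in arrays labelled Dicer KO and 7.71 ± 0.27 in control arrays (SD, n = 3 each). Abi3bp fell by 1.19 ± 0.18 on the log2 scale (SE; limma adjusted p = 0.0413), which is 2.28-fold lower. Its mean over all arrays minus the arrays' median signal was -0.057, so it is among the genes near that signal. Whether its transcript was present is unknown. The call was kept without labelled KO array 3, at -1.37 (adjusted p = 0.0187), and was lost without any 1 of the other 5 arrays, with adjusted p of 0.0979 to 0.173 and differences of -1.34 to -1.08. With animal sex as a model term, a setting chosen after the data were seen, it was at -1.17 (adjusted p = 0.140).

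Sparc, a secreted glycoprotein that binds collagen, had the second smallest p of the 64 and the opposite direction. It read 10.68, 10.83 and 10.98 in the arrays labelled Dicer KO, against 10.28, 10.35 and 10.08 in control arrays. The groups did not overlap, and labelled KO array 3 and control array 3 lay furthest apart. The difference of 0.59 ± 0.11 (SE), 1.51-fold, missed the threshold over all genes (adjusted p = 0.0728). It lay between 0.51 and 0.67 with any 1 array left out (adjusted p 0.0749 to 0.206).

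The small leucine-rich proteoglycans bind to fibrillar collagen and shape fibre growth, and 3 of them are members. Fibromodulin, from Fmod, read 8.996, 8.69 and 8.95 in the arrays labelled Dicer KO, against 8.37, 8.40 and 8.25 in control arrays. All labelled KO arrays were above all control arrays, and the difference of 0.54 ± 0.10 (SE) had an adjusted p of 0.0780. Decorin, from Dcn, read 9.34, 9.28 and 9.33 in the arrays labelled Dicer KO, against 8.60, 9.19 and 9.10 in control arrays. The 3 labelled KO values of Dcn were close together, and control array 1 was the low one. Its difference of 0.35 ± 0.15 (SE; adjusted p = 0.320) was 0.17 without control array 1. Lumican, from Lum, read 6.19, 5.65 and 5.74 in the arrays labelled Dicer KO, against 5.67, 6.01 and 5.72 in control arrays. The groups overlapped for Lum, at 0.060 ± 0.15 (SE; adjusted p = 0.899), so of the 3 proteoglycans it was the 1 with overlapping groups; whether the 3 differed from each other was not tested.

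**Figure D2:**
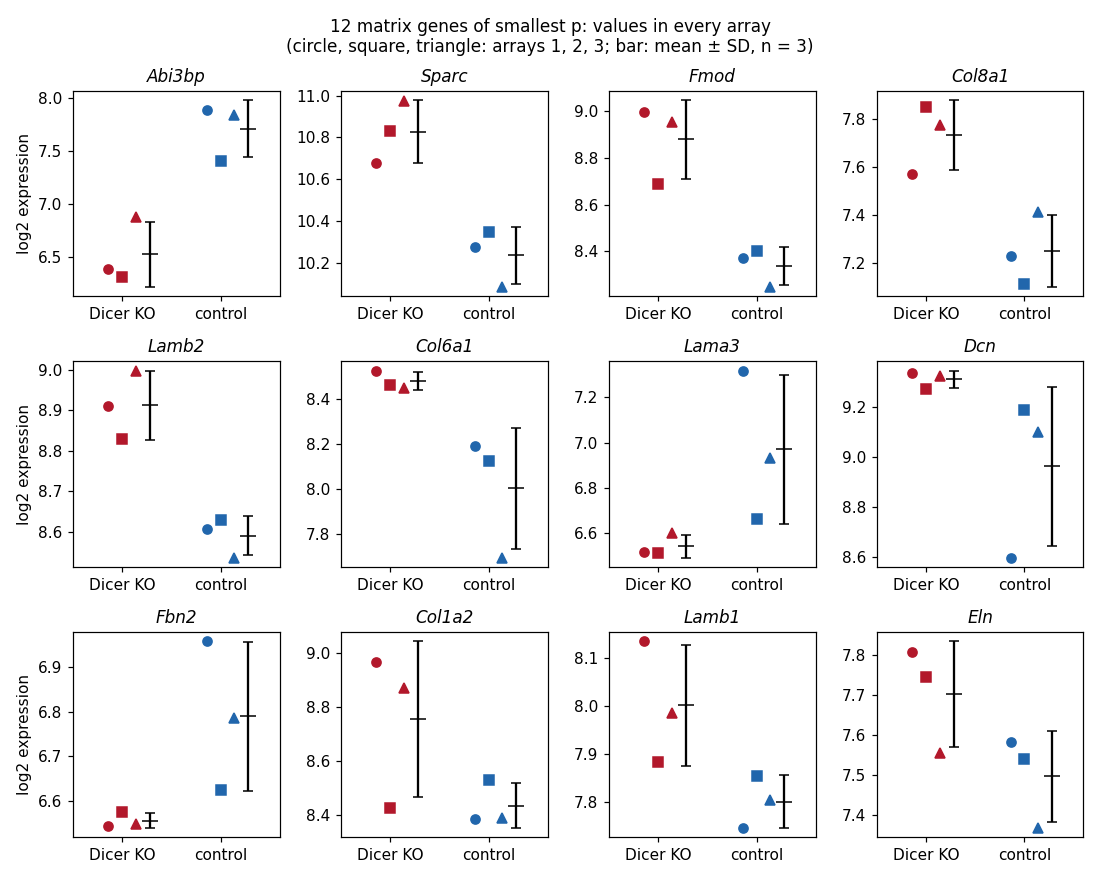
Log2 expression (vertical axis, a separate range for each gene) in every array for the 12 genes of smallest p, with the mean and SD of each group (n = 3). Abi3bp, Lama3 and Fbn2 are lower in every labelled KO array, and Sparc, Fmod, Col8a1, Lamb2, Col6a1, Dcn and Lamb1 are higher in every one, while the groups overlap for Col1a2 and Eln.

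None of the 11 fibrillar collagen genes passed the threshold, and 7 of the 11 had negative differences, with a median of -0.055. With any 1 array left out the median lay between -0.076 (labelled KO array 1) and -0.0093 (labelled KO array 2). It was -0.028 with control array 1 left out and -0.082 with the array medians set equal. Col1a2, the second chain of type I collagen, read 8.97, 8.43 and 8.87 in the arrays labelled Dicer KO, against 8.38, 8.53 and 8.39 in control arrays. Col1a1, the main chain of the same fibre, read 8.77, 8.06 and 8.67 in the arrays labelled Dicer KO, against 8.43, 8.32 and 8.42 in control arrays. For both genes labelled KO arrays 1 and 3 were above every control array, and array 2 was not. Col1a2 was at 0.32 ± 0.14 and Col1a1 at 0.11 ± 0.17 (SE), with adjusted p of 0.341 and 0.820. With labelled KO array 2 left out they were at 0.48 and 0.33, and with array 1 left out at 0.21 and -0.024.

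Type III collagen forms thin fibres beside type I. Its gene Col3a1 read 7.37, 7.20 and 7.34 in the arrays labelled Dicer KO, against 7.33, 7.22 and 7.35 in control arrays. The groups lay over each other: the difference was 0.0025 ± 0.089 (SE; adjusted p = 0.994), with a 95% interval of -0.20 to 0.20. It turned to -0.024 with the array medians set equal. The other 8 fibrillar genes, Col2a1, Col5a1, Col5a2, Col5a3, Col11a1, Col11a2, Col24a1 and Col27a1, lay between -0.094 and 0.053. Col24a1 was the 1 fibrillar gene whose groups did not overlap, at -0.094 ± 0.088 (SE).

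Among the 6 basement membrane collagen genes 3 had positive and 3 negative differences, and none passed the threshold. Chains alpha 1 and alpha 2 of type IV collagen assemble together in the common collagen IV network, and their genes start next to each other on opposite strands. The start sites are 21 bases apart in the RefSeq annotation, so the promoter windows overlap by 78 bases. The window of Col4a2 is shown because it carries both starts (chr8:11312555-11312854, plus strand, GRCm38.p6; 250 bases before and 50 after the start of Col4a2), with CCAAT and GGGCGG on either strand in capitals.
Col4a2: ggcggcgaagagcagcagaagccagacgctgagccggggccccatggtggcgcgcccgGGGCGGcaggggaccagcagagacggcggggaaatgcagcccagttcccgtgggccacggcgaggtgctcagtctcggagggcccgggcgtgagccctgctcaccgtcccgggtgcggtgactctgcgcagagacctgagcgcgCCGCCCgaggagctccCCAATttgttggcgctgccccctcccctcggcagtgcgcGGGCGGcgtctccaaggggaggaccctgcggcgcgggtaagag

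Col4a2 read 8.15, 8.18 and 8.14 in the arrays labelled Dicer KO, against 8.09, 8.01 and 7.84 in control arrays. Col4a1 read 7.82, 7.86 and 7.76 in the arrays labelled Dicer KO, against 7.82, 7.81 and 7.77 in control arrays. Only the groups of Col4a2 were apart, at 0.18 ± 0.091 (SE; adjusted p = 0.424), and the difference was 0.11 without control array 3. Col4a1 was at 0.012 ± 0.079 (SE; adjusted p = 0.966), with a 95% interval of -0.17 to 0.19, and it turned to -0.015 with the array medians set equal. Whether the chains differed from each other was not tested.

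The remaining type IV chains are found in the basement membranes of specialised tissues such as kidney. Col4a4 was lower in every labelled KO array, at -0.15 ± 0.086 (SE; adjusted p = 0.470), and its neighbour Col4a3 was at -0.051 ± 0.093. Col4a5 was at -0.086 ± 0.10 and its neighbour Col4a6 at 0.081 ± 0.089 (SE). Direct neighbours in the RefSeq gene order include 9 pairs of members, made of 17 genes. Of the other pairs, Col6a1 at 0.48 lies beside Col6a2 at 0.11, and Dcn at 0.35 beside Lum at 0.060. Col3a1 at 0.0025 lies beside Col5a2 at -0.077.

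Collagen VI forms beaded filaments close to basement membranes, and the short-chain collagens form sheet-like networks. Of the 12 genes in this class, with Col7a1, Col26a1 and Col28a1 counted here, 8 had positive differences, and none passed the threshold. Col8a1, a short-chain collagen of vessel walls, read 7.57, 7.85 and 7.77 in the arrays labelled Dicer KO, against 7.23, 7.11 and 7.41 in control arrays. Its groups did not overlap, and the difference was 0.48 ± 0.11 (SE; adjusted p = 0.106). Col6a1, which encodes chain alpha 1 of collagen VI, read 8.53, 8.46 and 8.45 in the arrays labelled Dicer KO, against 8.19, 8.12 and 7.70 in control arrays. Control array 3 was far below the other 2 controls, and the difference of 0.48 ± 0.13 (SE; adjusted p = 0.152) was 0.32 without it. The remaining 10 genes, Col6a2 to Col6a6, Col7a1, Col8a2, Col10a1, Col26a1 and Col28a1, lay between -0.11 and 0.11.

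The FACIT collagens sit on the surface of fibres, and none of the 9 measured genes passed the threshold. They lay between -0.13 for Col20a1 and 0.081 for Col9a1, with 3 above and 6 below 0. Without labelled KO array 2, 5 of 9 were above 0, and without labelled KO array 3, 1 of 9 was. With the array medians set equal 2 of 9 were above 0. Col22a1 was the 1 FACIT gene lower in every labelled KO array, at -0.093 ± 0.081 (SE). The transmembrane collagens and multiplexins, which release cell-bound or basement membrane ectodomains and fragments, lay between -0.17 for Col15a1 and 0.037 for Col23a1. Of these 6 genes 5 had negative differences, with a median of -0.085, and all 6 had overlapping groups. Col25a1, whose neuronal transmembrane product is found in amyloid plaques, was at -0.12 ± 0.086 (SE; adjusted p = 0.581).

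Laminins are cross-shaped trimers of an alpha, a beta and a gamma chain that start basement membrane assembly. Of the 10 measured chains 8 had positive differences, and none passed the threshold. The median was 0.14, beside 0.0073 for all 64 genes and -0.0092 for all genes tested, and it lay between 0.10 and 0.19 with any 1 array left out. The groups of 5 of the 10 chains did not overlap, 4 higher and 1 lower in the arrays labelled Dicer KO, where 20.3% of all genes did not overlap. Setting the array medians equal left 8 chains above 0, with a median of 0.11.

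Lamb2, the beta chain of laminins in mature vessels and at the neuromuscular synapse, read 8.91, 8.83 and 8.997 in the arrays labelled Dicer KO, against 8.61, 8.63 and 8.54 in control arrays. The groups were apart by more than the range within either, and the difference was 0.32 ± 0.085 (SE; adjusted p = 0.142). Lamb1, the more widely used beta chain, read 8.14, 7.88 and 7.99 in the arrays labelled Dicer KO, against 7.75, 7.85 and 7.80 in control arrays. Its lowest labelled KO value was just above its highest control value, at a difference of 0.20 ± 0.093 (SE; adjusted p = 0.372). Lamc1, the gamma chain of most laminins, read 8.81, 8.78 and 9.08 in the arrays labelled Dicer KO, against 8.74, 8.72 and 8.66 in control arrays. Labelled KO array 3 was the high one, and the difference of 0.18 ± 0.10 (SE; adjusted p = 0.459) was 0.090 without it.

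The alpha chains set which receptors a laminin binds. Lama2, made in the brain by pericytes, fibroblasts and astrocytes, read 8.14, 8.004 and 8.36 in the arrays labelled Dicer KO, against 7.89, 8.02 and 8.15 in control arrays. These ranges overlapped, at 0.15 ± 0.11 (SE; adjusted p = 0.609), and the difference was 0.056 without labelled KO array 3. The endothelial chains Lama4 and Lama5 were at 0.21 ± 0.12 and 0.12 ± 0.083, and Lama1 at 0.12 ± 0.083 (SE). Lama3, a chain of epithelial basement membranes, read 6.52, 6.51 and 6.60 in the arrays labelled Dicer KO, against 7.32, 6.66 and 6.93 in control arrays. It went the other way from Lamb2, at -0.43 ± 0.15 (SE; adjusted p = 0.241). Control array 1 held the highest Lama3 value, and without it the difference was -0.25. Lamb3 and Lamc3 were at -0.061 ± 0.096 and 0.071 ± 0.10 (SE).

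Nidogens link laminin to type IV collagen. Nid1 read 7.22, 6.998 and 7.52 in the arrays labelled Dicer KO, against 7.41, 7.34 and 7.17 in control arrays. Nid2 read 6.96, 6.81 and 6.84 in the arrays labelled Dicer KO, against 6.95, 6.75 and 6.72 in control arrays. Both genes overlapped between groups, with differences of -0.059 ± 0.14 and 0.063 ± 0.096 (SE). Nid1 turned to 0.066 without labelled KO array 2.

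Elastic fibres consist of elastin on a scaffold of fibrillin microfibrils. Fbn2, the fibrillin more prominent in development, read 6.54, 6.57 and 6.55 in the arrays labelled Dicer KO, against 6.96, 6.62 and 6.79 in control arrays. The labelled KO values lay close together below the controls, at -0.23 ± 0.10 (SE; adjusted p = 0.333), and the difference was -0.15 without control array 1. Eln read 7.81, 7.74 and 7.56 in the arrays labelled Dicer KO, against 7.58, 7.54 and 7.37 in control arrays, with overlapping groups and a difference of 0.21 ± 0.10 (SE; adjusted p = 0.407). Fibronectin, from Fn1, is a fibrous adhesion protein of plasma and matrix. It read 9.34, 9.04 and 9.91 in the arrays labelled Dicer KO, against 9.39, 9.57 and 9.39 in control arrays. Its SD of 0.44 in the arrays labelled Dicer KO was the largest of the 64 genes, against 0.11 in control arrays. The difference of -0.020 ± 0.19 (SE; adjusted p = 0.978) was -0.26 with labelled KO array 3 left out and 0.17 with array 2 left out.

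The 13 reported miR-29 targets among the 64 genes were chosen from background knowledge, with earlier results of these data known. They had 9 positive and 4 negative differences and a median of 0.053, beside 0.0073 for all 64 genes and -0.0092 for all genes tested. None passed the threshold. Sparc, Col4a2 and Lamc1 were higher in every labelled KO array, and the other 10 overlapped, so 23.1% did not overlap, against 20.3% of all genes. The lowest was Col15a1, the chain of a basement membrane multiplexin, at -0.17 ± 0.092, and the highest was Sparc at 0.59 ± 0.11 (SE). With the array medians set equal 7 of the 13 were above 0. The median of the 13 was 0.0092 when labelled KO array 1 was left out, 0.096 when array 2 of that group was, and 0.025 when control array 3 was.

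The promoter window of Sparc, which had the largest positive difference, is shown in lower case because it holds none of the 3 searched motifs (chr11:55420031-55420330, minus strand, GRCm38.p6, RefSeq; 250 bases before and 50 after the start).
Sparc: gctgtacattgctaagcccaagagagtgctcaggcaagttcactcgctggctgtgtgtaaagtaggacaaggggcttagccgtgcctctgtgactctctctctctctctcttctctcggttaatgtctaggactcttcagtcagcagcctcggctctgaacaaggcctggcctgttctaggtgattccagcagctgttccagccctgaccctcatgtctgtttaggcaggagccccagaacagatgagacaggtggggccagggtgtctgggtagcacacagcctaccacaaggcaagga
A promoter window was matched by symbol for 43 of the 64 genes. TATAAA was found on either strand in 5 of the 43 (11.6%), where 14.2% of all 27025 windows hold it, and CCAAT in 15 (34.9%), where 37.9% of all windows hold it. GGGCGG was found in 26 of the 43 (60.5%) and in 35.9% of all windows. None of the 3 motifs contains another, and a match is a description of the sequence. Among the other members that were higher in every labelled KO array, the windows of Col4a2, Col8a1 and Lamb1 hold GGGCGG. Those of Fmod, Col4a2 and Lamb1 hold CCAAT, while those of Lamb2 and Col6a1 hold none of the 3 motifs. Dcn, Lamc1 and Lama1, also higher in every labelled KO array, had no matched window.

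Within each group 1 array held the lowest value for most of the matrix genes. Other genes of like signal were not compared, so a pattern particular to matrix genes is not shown. Labelled KO array 2 held the lowest of the 3 labelled KO values for 47 of the 64 genes (73.4%), where it did so for 35.0% of all genes. Among control arrays, array 2 was lowest for 35 of the 64 genes (54.7%) and for 36.6% of all genes. The fibrillar collagens had mean deviations from the control mean of 0.081, -0.13 and 0.042 in labelled KO arrays 1, 2 and 3, against 0.057, -0.048 and -0.0090 in control arrays. Laminin chains had 0.095, 0.010 and 0.16 in the arrays labelled Dicer KO, against 0.027, -0.039 and 0.012 in control arrays.

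Markers of cells that make matrix varied between the same arrays. Of 25 meningeal and fibroblast markers, none of them a member, 18 had positive differences and none passed. Their mean deviations were 0.093, -0.10 and 0.30 in the arrays labelled Dicer KO, against -0.066, 0.016 and 0.050 in control arrays, and their mean level ranged from 7.89 to 8.29 in arrays labelled Dicer KO and from 7.92 to 8.04 in control arrays. Slc6a13, a transporter of meningeal fibroblasts, was higher in every labelled KO array, at 0.28 ± 0.086 (SE; adjusted p = 0.193), and Slc22a6, Slc22a8 and Slc13a3 lay between -0.18 and 0.13. The array values hold no 0, so the absence of a marker cannot be read from them. The part of these cells in the matrix gene values was not tested.

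Endothelial markers had 11 of 19 positive differences and a median of 0.071, and none passed. Pericyte and smooth muscle markers had 9 of 16 and a median of 0.041, and none passed, with Pdgfrb higher in every labelled KO array at 0.36 ± 0.088 (SE; adjusted p = 0.120). Choroid plexus markers had 7 of 12 and a median of 0.014. Their defining transcript Ttr read 9.85, 10.95 and 8.30 in the arrays labelled Dicer KO, against 8.73, 8.34 and 8.18 in control arrays, with overlapping groups, while Folr1, Kl and Clic6 lay between -0.042 and 0.015.

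Of 15 astrocyte markers 11 had positive differences, and the mean deviations were 0.091, -0.0059 and 0.44 in the arrays labelled Dicer KO, against -0.076 to 0.078 in control arrays. Of 12 reactive astrocyte genes 10 were positive, and Vim, which encodes an intermediate filament, rose by 0.52 ± 0.080 (SE; adjusted p = 0.0481). The mean deviations of the 12 were 0.26, 0.21 and 0.52 in the arrays labelled Dicer KO, against -0.085 to 0.084 in control arrays. Gfap, which is in both lists, had the largest difference of each, at 1.07, and did not pass the threshold. Higher in every labelled KO array were 6 of the 15 astrocyte markers (40%) and 6 of the 12 reactive genes (50%), with 9.3% of all genes. In both lists 0 genes were lower in every one. Microglia and macrophage markers had 7 of 14 positive differences (median 0.0011), oligodendrocyte markers 6 of 9 (median 0.16) and oligodendrocyte precursor markers 1 of 8 (median -0.25). Of the 8 precursor markers 4 were lower in every labelled KO array (50%, with 11% of all genes) and 0 were higher in every one. Excitatory neuron markers had 6 of 14 positive differences (median -0.055), with Nrgn, a postsynaptic calmodulin-binding protein named after its value was seen, called lower at -0.60 ± 0.089 (SE; adjusted p = 0.0413), and inhibitory neuron markers 6 of 11 (median 0.079). No gene of the whole table, Vim and Nrgn included, was called without labelled KO array 1 or 2 or any 1 control array, or with animal sex as a model term. Labelled KO array 3 had the highest mean deviation of its group for the astrocyte, reactive astrocyte, meningeal, microglial and oligodendrocyte lists. It also had the highest for the inhibitory neuron list (0.22) and, by smaller margins, for the pericyte, excitatory neuron and olfactory bulb lists. It was not the highest for the endothelial, choroid plexus and oligodendrocyte precursor lists. It held the highest labelled KO value for 25 of the 64 matrix genes (39.1%) and for 41.4% of all genes, while array 1 held it for 33 of the 64 (51.6%) and for 22.4% of all genes. The part of these cell types was not tested.

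**Figure D3:**
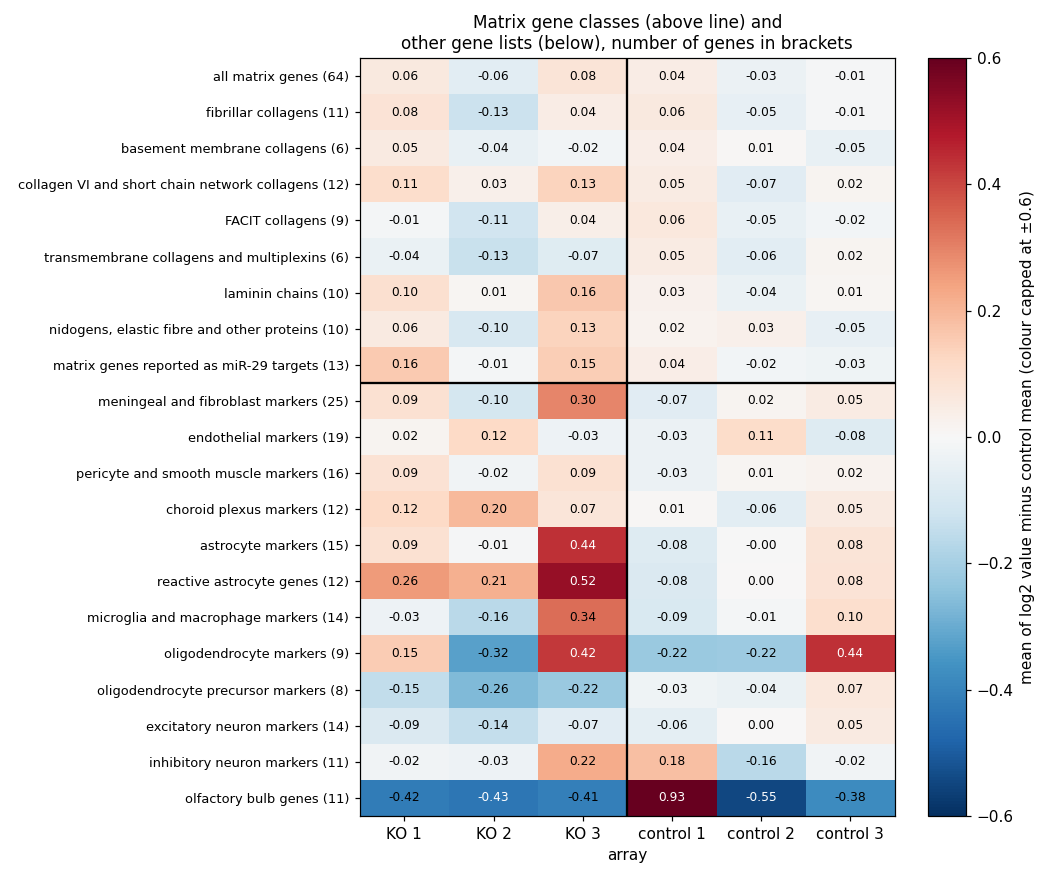
Each cell gives the mean, over the genes of a list, of the log2 value minus the control mean, in each of the 6 arrays (columns), for matrix gene classes and for other lists (rows). Labelled KO array 2 has the lowest value of the labelled KO arrays in every one of the 7 matrix classes, and control array 1 stands out at 0.93 for olfactory bulb genes.

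The genes that process, cut and bind matrix were counted from 5 further lists of 142 genes in all, none of them members. No gene of these lists passed the threshold over all genes by limma, and 29 (20.4%) had an unadjusted p under 0.05, where 14.4% of all genes did. Collagen synthesis and crosslinking genes had 16 of 29 positive differences and a median of 0.0091, which was -0.018 with the array medians set equal and lay between -0.040 and 0.073 with any 1 array left out. P4ha1, the catalytic subunit of a collagen prolyl hydroxylase, was at -0.38 ± 0.10 and Bmp1, which trims procollagen, at 0.48 ± 0.15 (SE), both with groups that did not overlap. Matrix proteases and their inhibitors had 14 of 25 positive differences and a median of 0.041, which was -0.026 with labelled KO array 3 left out, and -0.019 and 0.085 with control arrays 2 and 3 left out in turn. Mmp14, a membrane-bound collagenase, was at 0.32 ± 0.086 (SE; adjusted p = 0.147).

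Matrix receptors had 20 of 28 positive differences and a median of 0.084. The groups of 10 of them did not overlap, and all 10 had their higher values in the Dicer KO arrays (35.7%, where 9.3% of all genes did so). Itgb1, the beta chain shared by most collagen and laminin receptors, read 9.997, 9.99 and 10.28 in the arrays labelled Dicer KO, against 9.45, 9.65 and 9.57 in control arrays. The difference of 0.53 ± 0.11 (SE) missed the threshold (adjusted p = 0.0814). Itga8, an integrin chain that pairs with it, was at 0.67 ± 0.15 (adjusted p = 0.103) and Sdc4, a heparan sulfate carrier at adhesion sites, at 0.40 ± 0.11 (SE; adjusted p = 0.143). Without labelled KO array 3 the median of the receptors was 0.016, with 16 of 28 above 0.

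Other matrix proteins had 34 of 53 positive differences and a median of 0.082, which was 0.050, 0.16 and 0.035 without labelled KO arrays 1, 2 and 3 in turn. Thbs1, an adhesive glycoprotein that activates TGF-beta, was at 0.48 ± 0.16 and Npnt, a ligand of the Itga8 integrin, at -0.30 ± 0.092 (SE), with adjusted p of 0.229 and 0.193. All 7 TGF-beta ligand and receptor genes had positive differences, with a median of 0.16; without labelled KO array 3, 5 of the 7 were positive and the median was 0.029. Tgfbr3, a co-receptor for TGF-beta, was at 0.49 ± 0.082 (SE; adjusted p = 0.0548).

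**Figure D4:**
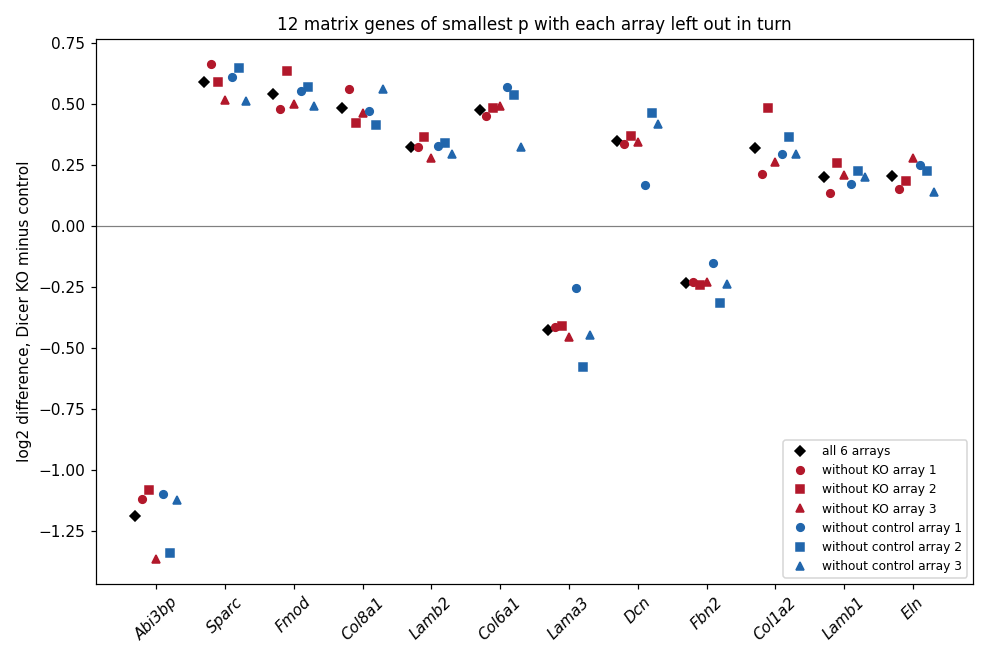
Log2 differences, Dicer KO minus control (vertical axis), for the 12 genes of smallest p with all 6 arrays (diamonds) and with each array left out in turn. All 12 keep their sign, and the differences of Dcn, Lama3 and Fbn2 are nearest 0 without control array 1.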

How the data were processed

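Values are from 6 arrays of adult mouse forebrain cortex, 3 from animals labelled Dicer KO and 3 from controls. Sample titles gave the groups and call the samples of a group biological replicates, without saying more. The deposited table holds 1 log2 value per probe set and array, from about 1.93 to 14.8. Per the submitters' processing notes the tools were RMA and limma; the sources used here state neither a background step nor how probe sets were defined. Summaries of this kind compress differences of dim transcripts, no signal over background was at hand, and precision is limited by the 6 arrays.

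Of 35557 rows, 21789 have 1 gene symbol in the platform annotation; symbols were updated through the gene identifier where the mouse table of GRCm38.p6 allowed (21698 rows). The probe set with the highest mean per gene left 19938 genes. The two-sided test was limma's moderated test (version 3.58.1, R 4.3.3; lmFit, then eBayes, with no term but group), adjusted by Benjamini-Hochberg over all genes at 0.05. The smallest p that exact permutation of 3 and 3 arrays can give is 0.1. Array numbers do not mark shared litters in the labels. The members and gene lists were chosen with earlier results of these data known. Values in every array are given for members past the threshold, the 12 of smallest p and a fixed set of main chains and linkers; of the other lists, genes were named from the 4 of smallest p or the first 4 markers. Steps were tested on simulated data. Alternatives were a block for array number, leaving out single arrays, median centring, repeated quantile normalization, testing only genes above the median level, averaging or separating probe sets, other priors, array weights, an unmoderated test, a threshold of 0.1 and, added after the data were seen, the sex of the animal.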

Additional observations from a re-analysis of the deposited data

How the results depend on the processing

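The count of called matrix genes was 1 of 64. It was 0 to 1 with each array left out in turn, 0 with every row tested (7 at an unadjusted p under 0.05), with an unmoderated test (6) and with animal sex as a covariate (7), 2 of 26 over genes above the median level (Sparc and Fmod; Abi3bp was below that level), 3 at a threshold of 0.1 and 6 with array weights. The median difference of 0.0073 was 0.090 over the 26 brighter members, where that of all 9969 genes above the median level was 0.0020. At an unadjusted limma p under 0.05 there were 6 of the 26 and 2125 of the 9969. With each array left out the median difference of the 64 matrix genes lay between -0.030 and 0.049. Over all genes the 56 calls became 215 with the replicate block, 178 over genes above the median level, 320 at a threshold of 0.1 and 1116 with array weights. They became 0 to 129 with each array left out. There were 0 calls with every row tested, where 3725 of 35557 rows had an unadjusted limma p under 0.05. An unmoderated test also gave 0 calls (2403 of 19938 genes at an unadjusted p under 0.05), as did animal sex as a covariate (2292 of 19938). The 5 further lists had 0 calls, and 1 with the replicate block, 1 over genes above the median level, 2 at a threshold of 0.1 and 12 with array weights. The cause of these changes was not tested.

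The array numbers pair no samples by the labels, so the replicate block is given as counts only, and it left 1 matrix gene called. Over all genes, deviations from the group means correlated at 0.089, 0.17 and 0.29 between same-numbered arrays. Between differently numbered arrays of the 2 groups they correlated at -0.23 to 0.094, and the highest of these was above the 0.089 of the arrays numbered 1. Deviations from a group mean sum to 0 within the group, so these correlations depend on each other. They cannot decide whether the array numbers carry structure, and do not show them to be without it. Whether same-numbered arrays share a source was not tested. Among the 22 matrix genes given in every array, signs changed only for differences within their error. With each array left out Col1a1 lay between -0.024 and 0.33, Col3a1 between -0.037 and 0.056, Col4a1 between -0.012 and 0.039, Fn1 between -0.26 and 0.17, Lum between -0.10 and 0.16 and Nid1 between -0.20 and 0.066. With median centring Col3a1 was at -0.024 and Col4a1 at -0.015, and with a second quantile normalization at -0.022 and -0.013. With animal sex as a covariate Col3a1 was at -0.0047 and Lum at -0.044.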

Other observations

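Second probe sets of 2 matrix genes were left out of the counts above. For Col6a5, a collagen VI chain, the second probe set read 6.36, 6.35 and 6.73 in the arrays labelled Dicer KO, against 6.26, 5.93 and 6.49 in control arrays, a difference of 0.25 ± 0.18 (SE). For Col6a6, another collagen VI chain, it read 6.00, 5.86 and 5.96 in the arrays labelled Dicer KO, against 6.10, 6.11 and 6.17 in control arrays, a difference of -0.19 ± 0.078 (SE), where the probe set used above was at 0.060 ± 0.087. The 2 probe sets of Col6a6 thus had opposite signs.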
